A study of Mus musculus with 9 samples.

Results

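The 9 genes of the endothelial surface described here are the fenestration and glycocalyx genes Plvap (ENSMUSG00000034845) and Emcn (ENSMUSG00000054690), the caveola genes Cav1 (ENSMUSG00000007655) and Cavin1 (ENSMUSG00000004044), the membrane-remodelling gene Ehd4 (ENSMUSG00000027293), and the cell contact genes Cldn5 (ENSMUSG00000041378), Cdh5 (ENSMUSG00000031871), Esam (ENSMUSG00000001946) and Pecam1 (ENSMUSG00000020717). They were taken by name, 9 of the 52636 genes of the count table, and all were found. The data were counts of unique molecular identifiers (UMIs, 1 per captured transcript) in single cells of thyroids from male C57BL/6 mice, aged 10 to 12 weeks by one label and 10 to 14 weeks by another. Each of 9 samples was a pool of 6 mice, 7 days after 1 intraperitoneal injection, with 3 samples per group. The group RW received an isotype control antibody against ragweed (40 mg/kg). The group aJ1aJ2 received antibodies that block the Notch ligands Jag1 and Jag2 (20 mg/kg each), and the group aN1aN2 antibodies that block the receptors Notch1 (5 mg/kg) and Notch2 (10 mg/kg). The antibodies act in the whole animal, not in endothelium alone.

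Endothelial cells of endocrine glands such as the thyroid form fenestrated capillaries, whose thin walls hold pores that let hormones pass into the blood. Plvap builds the diaphragms that span fenestrae and the necks of caveolae. Emcn is a sialomucin of the endothelial glycocalyx, carried mainly by capillaries and veins. Caveolae are flask-shaped pits of the plasma membrane that need Cav1 and Cavin1, and Ehd4 belongs to a family of ATPases that shape endocytic membranes. At cell contacts, Cldn5 is the main claudin of endothelial tight junctions, Cdh5 (VE-cadherin) holds adherens junctions together, and Esam and Pecam1 are adhesion proteins of the immunoglobulin family. Notch signalling between endothelial cells takes part in the choice between arterial, venous and capillary fates.

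The authors' labels EC1 (1603 cells), EC2 (409), EC3 (365) and EC4 (1046) held the endothelial cells. All 10 endothelial markers outside the list (among them Kdr, Flt1, Tek and Erg) had UMIs in each of the 4 labels and each group. Levels are given as CPM, the UMIs of a gene scaled to a common library total. EC3 also held lymphatic markers, with a summed level of 5 genes at 803 to 1691 CPM in RW against 117 to 136 in EC1. In EC3 this sum was 1632 to 2289 CPM in aJ1aJ2 and 218 to 1764 in aN1aN2. The part of lymphatic cells in the EC3 results was not tested. Samples with at least 20 cells of a label were used: all 9 in EC1 and EC4, 8 in EC3 (without aJ1aJ2 1) and 7 in EC2 (without RW 3 and aJ1aJ2 1). The numbers of RW 3 and aJ1aJ2 1 were assigned here, since their titles give none. Summed over endothelial cells, the samples held 639408 to 2864336 UMIs. Titles carry internal numbers in 3 ranges, and the 3 aN1aN2 samples are the whole of 1 range (series C), so receptor blockade and series cannot be told apart. EC4 made up 20.5% to 25.1% of endothelial cells in RW, 23.3% to 26.1% in aJ1aJ2 and 47.9% to 51.9% in aN1aN2, and EC4 cells were shallow (median 1045.5 UMIs against 3994 in EC1). The summed level of the 10 endothelial markers in EC1 ran from 9566 to 10332 CPM after receptor blockade and from 12136 to 13257 in the controls. In EC4 it ran from 11639 to 12749 and from 14740 to 15540. In the edgeR test used below (adjusted p under 0.05), 3 of the 10 were lower in EC1 and 0 higher, against 17.8% of all genes. The median log2 difference of the 10 in EC1 was -0.13. The summed level of 6 thyrocyte markers in EC1 ran from 1319 to 1933 CPM after receptor blockade and from 694 to 966 in the controls. In EC2 it ran from 848 to 1577 and from 645 to 651. The part of these shifts in the results was not tested. How the authors made the labels is not given in the sources used here, and a shift of cells between labels and a change within a label cannot be told apart. Of 10171 barcodes, 15 occurred in more than 1 library, 4 of them in endothelial cells.

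Sequences just before the start of 3 members are shown because these members moved most in EC1 after receptor blockade: Emcn and Ehd4 fell together, and Cldn5 rose. They are from RefSeq (GRCm38.p6), 5′ to 3′ on the gene's strand, and end before the first annotated base of the gene. Capitals mark the ETS core GGAA on either strand (TTCC where it lies on the other strand), the core bound by ETS factors such as Erg and Fli1 that drive many endothelial genes.
Emcn: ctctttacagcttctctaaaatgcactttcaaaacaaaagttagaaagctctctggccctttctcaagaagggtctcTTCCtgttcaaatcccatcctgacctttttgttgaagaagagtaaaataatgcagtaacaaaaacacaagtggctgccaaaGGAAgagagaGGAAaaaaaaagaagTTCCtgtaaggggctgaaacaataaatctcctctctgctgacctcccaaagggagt
Ehd4: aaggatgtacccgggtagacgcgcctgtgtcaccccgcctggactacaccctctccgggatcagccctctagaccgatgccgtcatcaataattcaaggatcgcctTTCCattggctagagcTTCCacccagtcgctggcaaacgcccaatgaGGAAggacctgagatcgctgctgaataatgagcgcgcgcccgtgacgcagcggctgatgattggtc
Cldn5: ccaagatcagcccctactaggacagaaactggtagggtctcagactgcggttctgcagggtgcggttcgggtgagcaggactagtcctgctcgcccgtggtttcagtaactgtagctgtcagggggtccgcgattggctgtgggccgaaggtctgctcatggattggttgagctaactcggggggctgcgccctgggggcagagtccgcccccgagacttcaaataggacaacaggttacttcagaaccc
The Emcn sequence is chr3:137340828-137341066 (plus strand), the Ehd4 sequence chr2:120154607-120154825 (minus strand) and the Cldn5 sequence chr16:18776597-18776846 (plus strand). The Emcn piece holds 4 ETS cores and the Ehd4 piece 3, while the Cldn5 piece holds 0. In the full windows of 300 bases around the start, Emcn had 6, Ehd4 had 3 and Cldn5 had 0. Such a core lies in 96.0% of the 32851 windows of the table. The core bound by the Notch effector Rbpj (TGGGAA, either strand, which contains GGAA) was in 25.6% of all windows and in none of these 3. The box CACGNG read by Hes and Hey repressors was in 27.5% of all windows, with 1 match each at Ehd4 and Cldn5 and 0 at Emcn. A match is only a string of letters and was not measured as a bound site. Cav1 and Cavin1 were also in the table, with 2 listed starts each, and Plvap, Cdh5, Esam and Pecam1 were not used for sequence.

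In control thyroids the members fell into opposite patterns across the labels. These levels are descriptions with no test, since the labels were made from the same cells. Ratios between labels were taken within samples, and counts of 7, 8 or 9 samples and their medians run over all 3 groups. Plvap was at 4032, 3767 and 4784 CPM in EC1 of RW 1, RW 2 and RW 3, and at 3514, 3818 and 3691 in EC4. It was at 793, 627 and 620 CPM in EC3, and at 115 and 33.8 in EC2 of RW 1 and RW 2. The EC2 level was lower than that of EC1 in 7 of 7 samples, by a median of 55.1-fold, and by 34.95-fold in RW 1 and 112-fold in RW 2. The EC2 level was near that of labels without endothelium: on raw library totals Plvap averaged 74.1 CPM in EC2 of RW, 113 in thyrocytes of the label Th1 and 73.2 in fibroblasts of the label F. Low expression and free RNA in EC2 were not told apart by a test, and the fold rests on that low level. Emcn and Ehd4 shared the pattern of Plvap. In RW, Emcn was at 4081 to 4790 CPM in EC1, 3202 to 3877 in EC4, 478 to 732 in EC3 and 562 to 684 in EC2. Ehd4 was at 1014 to 1199 CPM in EC1 and 711 to 1222 in EC4, against 275 to 470 in EC3 and 72.1 to 118 in EC2. The groups of labels did not overlap for these 3 genes in RW.

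Cldn5, Cav1 and Cavin1 showed the reverse. Cldn5 was at 12.1 to 21.7 CPM in EC1 of RW and at 895 to 1288 in EC2 and 1214 to 1230 in EC3. Its level in EC2 was above that of EC1 in 7 of 7 samples, with a median ratio of 39.5 (range 15.4 to 71.1, with 59.4 and 61.9 in RW 1 and RW 2), and in EC3 in 8 of 8, with a median ratio of 45.4. In EC4 the 3 RW samples together held only 10 Cldn5 UMIs. Cav1 was 3.80-fold (range 2.41 to 4.86) and Cavin1 3.15-fold (range 1.54 to 3.83) higher in EC2 than in EC1 by the median, again in 7 of 7 samples. In RW 1 and RW 2 the ratios were 3.84 and 4.86 for Cav1 and 3.68 and 3.83 for Cavin1. Both genes are also made by mural cells and fibroblasts, and Cavin1 was at 732 CPM in the 1 RW sample of label SM that could be used. Junction genes differed less. Cdh5 was higher in EC2 than in EC1 in 7 of 7 samples (median ratio 1.69) and lower in EC3 in 8 of 8 (0.737). Esam was lower in EC3 than in EC1 in 8 of 8 samples (0.575), and in EC2 it was lower in 5 of 7 (0.955). Pecam1 was higher in EC4 than in EC1 in 9 of 9 samples, with a median ratio of only 1.16.

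**Figure D1:**
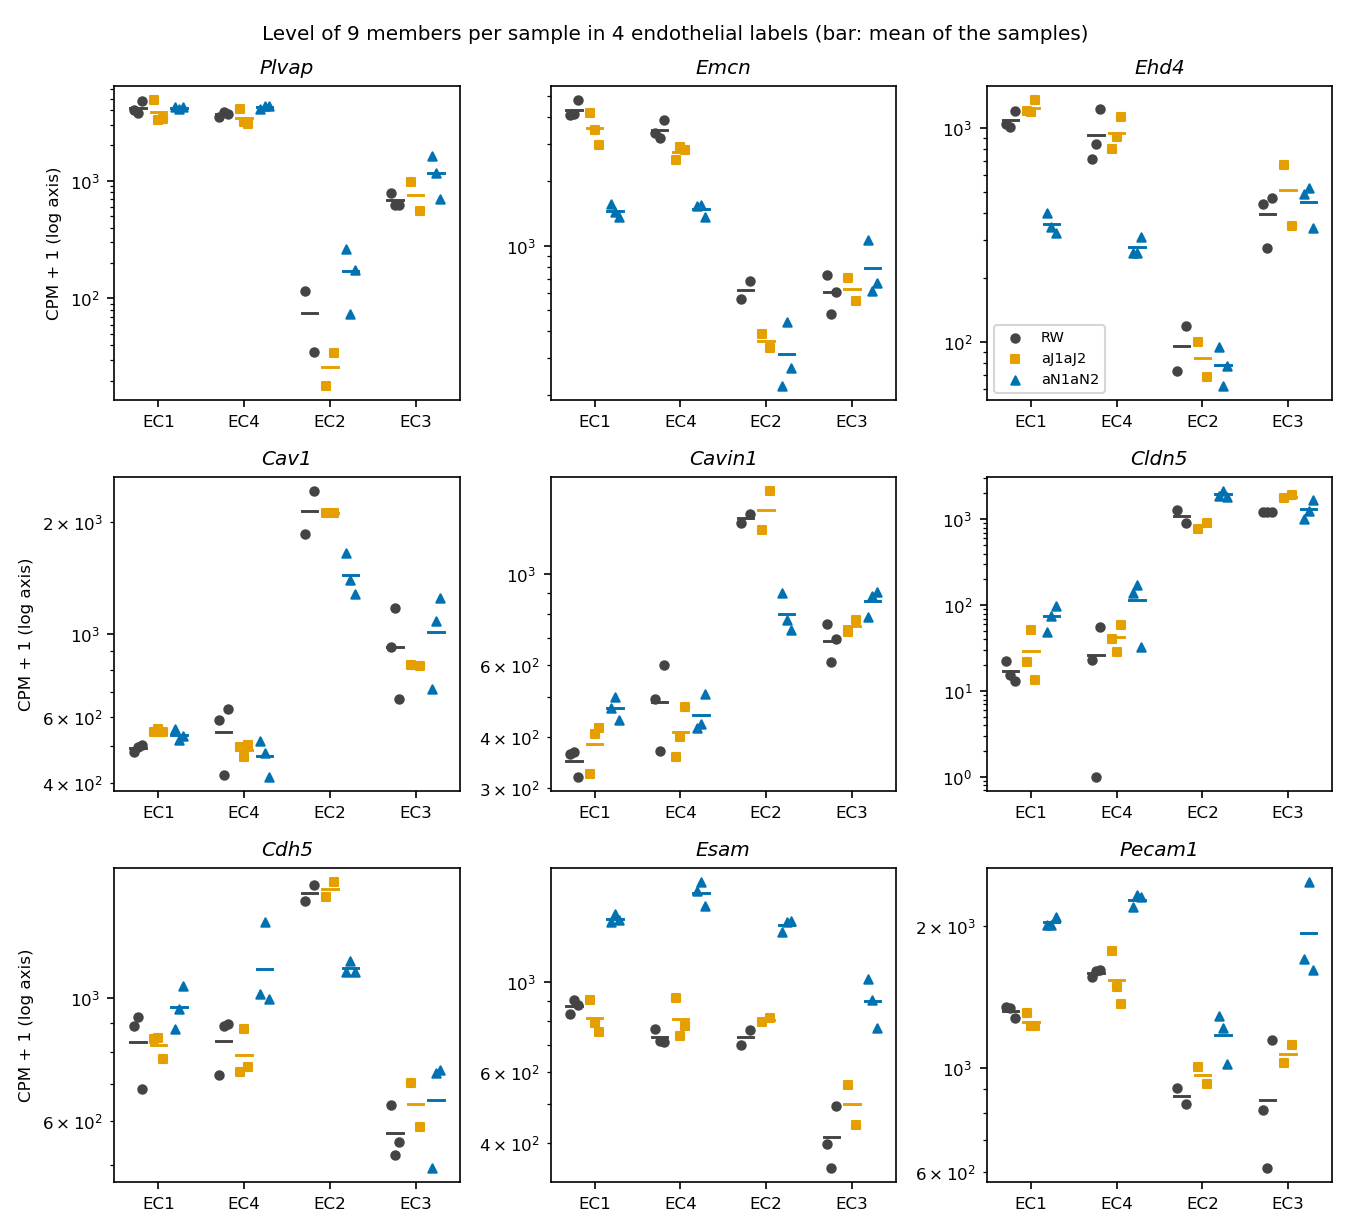
Level of each member in every sample, as CPM plus 1 on a log axis, by label (horizontal axis) and group (grey circles RW, orange squares aJ1aJ2, blue triangles aN1aN2; bars are means). In RW, Plvap, Emcn and Ehd4 sit high in EC1 and EC4, Cldn5 sits at 12.1 to 21.7 CPM in EC1 and at 895 to 1288 over EC2 and EC3, and the blue triangles of Emcn and Ehd4 lie below all others in EC1 and EC4.

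Ligand blockade was asked first. No member passed the test: 0 of 9 were called in EC1, EC2 and EC3 and 0 of 8 in EC4 in aJ1aJ2 against RW, where called means an adjusted p under 0.05 in edgeR's quasi-likelihood test. Of all genes tested, 1.42% were called in EC1, 1.91% in EC2, 0.0618% in EC3 and 0.871% in EC4. DESeq2 also called 0 members in each label. At an unadjusted p under 0.05 there were 2 members in EC1, 2 in EC2, 1 in EC3 and 1 in EC4. Emcn came nearest. It was at 4177, 3482 and 2962 CPM in EC1 of aJ1aJ2 1, 3 and 4 against 4081 to 4790 in RW, so the groups overlapped through aJ1aJ2 1. The log2 difference was -0.29 (SE 0.12, adjusted p 0.286), and it was -0.42 with an adjusted p of 0.0331 without aJ1aJ2 1, and -0.35 (0.0430) without series A, which holds RW 3 and aJ1aJ2 1. In EC4, Emcn was at 2520 to 2912 CPM in aJ1aJ2, below all RW samples, with a difference of -0.34 (adjusted p 0.442). In EC2 it was at 387 and 332 CPM, also below RW, with a difference of -0.78 (SE 0.24, adjusted p 0.101). Plvap in EC2 fell under the threshold only without RW 2 (log2 difference -2.09, adjusted p 0.0377, against -1.64 and 0.177 with it), on 22 UMIs in aJ1aJ2 and 28 in RW. After ligand blockade the levels in EC1 of aJ1aJ2 1, 3 and 4 were 1197, 1185 and 1345 CPM for Ehd4, 902, 790 and 752 for Esam, and 1304, 1223 and 1227 for Pecam1, each overlapping RW. Cav1 was at 546, 556 and 545 CPM, above the 483 to 502 of RW, with a difference of only 0.15 (SE 0.10, adjusted p 0.609). Cldn5 was at 20.9, 50.5 and 12.6 CPM, with aJ1aJ2 3 alone above RW (0.90, SE 0.38, adjusted p 0.311, and 0.0209 with no filter on low counts). The 95% intervals in EC1 bound what could have been missed there, from -0.53 to -0.06 for Emcn, from -0.03 to 0.41 for Ehd4, from -0.39 to 0.12 for Plvap, from -0.31 to 0.11 for Esam, from -0.09 to 0.38 for Cavin1 and, widest, from 0.15 to 1.65 for Cldn5.

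Some members differed between aN1aN2 and RW in each label, and Cav1, Cdh5 and Plvap passed the test in none. In this comparison, 6 of 9 were called in EC1, against 17.8% of all genes, 4 of 9 in EC2 (15.5%), 2 of 9 in EC3 (5.91%) and 4 of 8 in EC4 (21.1%). In EC1, Emcn and Ehd4 were lower and Esam, Pecam1, Cldn5 and Cavin1 higher. In EC4, Emcn and Ehd4 were lower and Esam and Pecam1 higher. Signs of RNA quality moved with the groups: the median mitochondrial share of UMIs per EC4 cell was 9.27% to 13.9% in the RW samples and 4.80% to 6.18% in aN1aN2 (EC1 4.77% to 6.31% and 3.75% to 4.41%). The sum of 10 dissociation-response genes in EC4 was 696 to 975 CPM in the controls, against 1057 to 1265 after receptor blockade. In EC2 it was 754 to 930 CPM against 1032 to 1202, and in EC1 and EC3 the ranges overlapped. The part of these signs in the results was not tested. The median log2 difference was 0.21 over the 9 members in EC1 and -0.01 over all genes, and 0.04 against -0.01 in EC4. Endothelial cells pooled over the 4 labels gave 5 of 9 calls (19.7% of all genes) against RW, 4 of 9 (13.5%) against aJ1aJ2, and 0 of 9 (1.16%) for aJ1aJ2 against RW, and there the share of EC4 cells, which was higher in aN1aN2, enters the sum. The pooled Cldn5 call against RW (0.73, adjusted p 0.0484) was lost without RW 2 (0.0536), RW 3 (0.139), aN1aN2 1 (0.0523), aN1aN2 2 (0.153) or aN1aN2 3 (0.176), and under 4 other settings over all samples (0.0507 to 0.0534).

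Emcn and Ehd4 had the largest falls among the members. Emcn was at 1574, 1444 and 1363 CPM in EC1 of aN1aN2 1, 2 and 3, against 4081, 4135 and 4790 in RW 1, 2 and 3. Every aN1aN2 sample lay below every RW and every aJ1aJ2 sample. The fall was 2.97-fold (log2 difference -1.57, SE 0.12, adjusted p 1.02e-08). In EC4 it was at 1527, 1552 and 1357 CPM against 3376, 3202 and 3877, a log2 difference of -1.24 (SE 0.16, adjusted p 1.43e-06), and the groups were again apart. In EC2, where Emcn is low, it was at 220, 441 and 268 CPM against 562 and 684 (-0.99, SE 0.26, adjusted p 0.0168). That call was lost without RW 2 (0.0668), without aN1aN2 1 (0.116) or without aN1aN2 3 (0.0582), and with cells of at least 1000 UMIs (-0.85, 0.0916). In EC3, Emcn was at 616 to 1066 CPM in aN1aN2 and 478 to 732 in RW, which overlapped, with a difference of 0.36 (SE 0.23, adjusted p 0.429).

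Plvap did not follow Emcn. In EC1 it was at 4207, 4049 and 4258 CPM in aN1aN2, inside the RW range of 3767 to 4784, with a log2 difference of -0.01 (95% interval -0.27 to 0.25, adjusted p 0.977). In EC4 it was at 4091 to 4360 CPM against 3514 to 3818, a difference of 0.22 (interval -0.09 to 0.52, adjusted p 0.378), with groups that did not overlap. In EC3 it was at 1639, 1161 and 702 CPM against 620 to 793, a difference of 0.77 (SE 0.27, adjusted p 0.121) that was called without aN1aN2 3 (1.05, 0.0411) and with no filter on low counts (0.72, 0.0151). The ratio of Emcn to Plvap UMIs within a sample needs no library total. In EC1 it was 1.01, 1.10 and 1.00 in RW 1, 2 and 3, 0.864 to 1.05 in aJ1aJ2, and 0.374, 0.357 and 0.320 in aN1aN2. In EC4 it was 0.839 to 1.05 in RW, 0.623 to 0.925 in aJ1aJ2 and 0.313 to 0.373 in aN1aN2. In both labels the aN1aN2 ratios lay apart from all others, which shows that these 2 genes changed unequally.

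Ehd4 also fell in EC1 and EC4. In EC1 it was at 398, 345 and 321 CPM in aN1aN2 1, 2 and 3 against 1046, 1014 and 1199 in RW, a 3.05-fold fall (log2 difference -1.61, SE 0.12, adjusted p 6.04e-09). In EC4 it was at 258, 259 and 309 CPM against 711, 838 and 1222, a 3.38-fold fall (-1.76, SE 0.22, adjusted p 9.81e-07). The groups did not overlap in either label. In EC2 the gene had 18 UMIs in all in aN1aN2, and the difference was -0.20 (SE 0.46, adjusted p 0.823). In EC3 it was at 341 to 521 CPM in aN1aN2, against 275 to 470 in RW (0.19, adjusted p 0.758). Macrophages also make Ehd4 (176 CPM in label M of RW), and the summed level of 6 macrophage markers in EC1 ran from 83.0 to 218 CPM in the controls, against 0 to 9.49 after receptor blockade, with Adgre1, Cd68 and Csf1r at 0. Its part in the result was not tested.

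**Figure D2:**
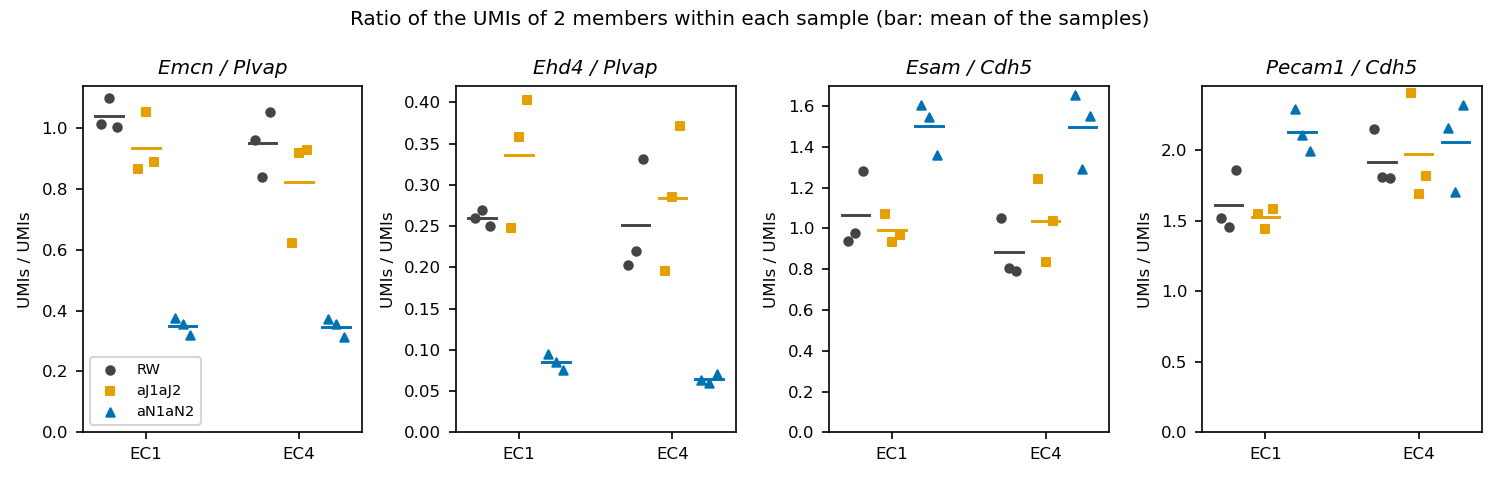
Ratio of the UMIs of 2 members within each sample of EC1 and EC4 (vertical axis, from 0; bars are means over samples). The aN1aN2 triangles of Emcn over Plvap lie at 0.313 to 0.374 in both labels, below every other sample, while Pecam1 over Cdh5 overlaps between the groups in EC4.

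Of the caveola genes, Cavin1 rose in EC1 and fell in EC2. Cavin1, which coats caveolae, was at 470, 501 and 440 CPM in EC1 of aN1aN2 against 363, 366 and 318 in RW, a log2 difference of 0.43 (SE 0.13, adjusted p 0.0191). This call was lost without RW 3 (0.0580), aN1aN2 1 (0.0659) or aN1aN2 2 (0.0937), and with no filter on low counts (0.0715). Fibroblasts also make Cavin1, and the summed level of 5 fibroblast markers in EC1 had a median of 15.7 CPM in the controls (highest 57.3), against 233 after receptor blockade (lowest 18.99, with Lum at 0), so the ranges overlapped. The 1 marker that passed the filter was called higher (2.80). Its part in the result was not tested. In EC2, where Cavin1 is highest, it was at 901, 771 and 728 CPM against 1336 and 1401, a fall with a log2 difference of -0.76 (SE 0.19, adjusted p 0.0118). Leaving out RW 2 (0.0511) or aN1aN2 2 (0.0515) took that call just over the threshold, as did a minimum of 10 cells per sample (-0.57, 0.0722) or of 1000 UMIs per cell (0.0581). The groups did not overlap in EC1 or EC2. In EC4 the difference was -0.14 (adjusted p 0.692) and in EC3 0.32 (0.336).

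Cav1, the coat protein of caveolae, was not called in any label. In EC2 it was at 1655, 1395 and 1284 CPM in aN1aN2 and 1855 and 2423 in RW, which were apart, with a difference of -0.55 (SE 0.18, adjusted p 0.0540). With no filter on low counts it was called (-0.64, 0.0320). Without RW 1, which left 1 RW sample, the difference was -0.76. In EC1 it differed by 0.12 (95% interval -0.09 to 0.33). The sum of 6 mural markers in EC2 was 1190 to 6872 CPM in aN1aN2 and 583 to 2112 in RW. Label SM holds both caveola genes, and 24.1% to 60.9% of EC2 cells in the samples used held a mural UMI. Without such cells only aN1aN2 2 kept 20 cells in its group, and receptor blockade was not fitted there, so the part of mural RNA in the EC2 results was not tested.

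Esam was called higher in aN1aN2 than in RW in all 4 labels. Its EC1 levels were 1408, 1473 and 1425 CPM against 831, 902 and 879 in RW 1, 2 and 3 (log2 difference 0.72, SE 0.11, adjusted p 4.31e-05). Its EC4 levels were 1679, 1767 and 1539 CPM against 762, 714 and 708 (1.19, SE 0.17, adjusted p 6.57e-06). In EC2 it was at 1330, 1408 and 1418 CPM against 697 and 760 (0.93, SE 0.18, adjusted p 0.00218). The groups were apart in each of these labels. In EC3 it was at 1018, 904 and 768 CPM against 396, 345 and 492 (1.12, SE 0.20, adjusted p 0.00347). Platelets also make Esam and Pecam1. The sum of 4 platelet markers in pooled endothelial cells was 16.98 to 45.0 CPM in the controls, against 62.0 to 93.8 after receptor blockade. The groups overlapped in EC1, EC3 and EC4 (12.4 to 289 CPM against 19.9 to 464 in EC4), in EC2 the sum was lower after receptor blockade, and the part of platelet RNA was not tested.

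Pecam1, an adhesion protein at endothelial contacts, was called higher in 3 labels. Its EC1 levels were 2008, 2009 and 2089 CPM in aN1aN2 against 1347, 1341 and 1273 (0.62, SE 0.10, adjusted p 9.99e-05). In EC3 it was at 1704, 2478 and 1615 CPM against 810, 610 and 1143 (1.18, SE 0.24, adjusted p 0.00776). Its EC4 levels were 2191, 2328 and 2301 CPM against 1561, 1601 and 1612, with a smaller difference of 0.51 (SE 0.16, adjusted p 0.0209). All 3 labels had groups apart. The EC4 call was lost on leaving out RW 1 (0.0804), RW 2 (0.0575), RW 3 (0.0521), aN1aN2 2 (0.0809) or aN1aN2 3 (0.0561), and with cells of at least 1000 UMIs only the difference was 0.20 (0.391). In EC2, Pecam1 was at 1288, 1212 and 1015 CPM against 904 and 836, groups apart, with a difference of 0.44 (adjusted p 0.130).

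The EC3 results of Esam and Pecam1 rest on few cells. The sum of 6 mural markers in EC3 was 2185 to 3792 CPM in RW, 762 to 954 in aJ1aJ2 and 77.4 to 685 in aN1aN2. Fibroblast markers in EC3 summed to 53.5 to 770 CPM in the controls, against 24.2 to 38.7 after receptor blockade. Erythroid markers went the other way, at 120 to 306 CPM in EC3 of the controls against 743 to 1130, and at 218 to 1065 in EC4 against 1667 to 2386. In EC2 erythroid markers summed to 411 to 494 CPM in the controls, against 1341 to 1772 after receptor blockade. The part of these in the results was not tested. Without cells that held any mural UMI, the difference was 1.17 for Esam (adjusted p 0.0826) and 1.05 for Pecam1 (0.176), so 0 of 9 members were called. RW 2 and aN1aN2 3 fell below 20 cells in that fit and were not in it. With samples of at least 10 cells, Esam in EC3 had an adjusted p of 0.0524.

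Cldn5 was called higher in aN1aN2 in EC1, where it was low, and in EC2, where it was high. In EC1 it was at 47.5, 74.2 and 97.5 CPM in aN1aN2 against 21.7, 14.5 and 12.1 in RW 1, 2 and 3 (log2 difference 2.17, SE 0.41, adjusted p 0.000613), on 80 UMIs in aN1aN2 and 79 in RW. The groups did not overlap. The share of EC1 cells with a Cldn5 UMI was a mean of 11.8% in aN1aN2 and 4.79% in RW (2.23% and 0.47% after thinning to 500 UMIs per cell). In Th1, whose cells were deeper, that share was 3.55% in aN1aN2 and 1.32% in RW, and 0% in both after thinning. On raw library totals Cldn5 averaged 73.6 CPM in EC1 of aN1aN2, 4.27 in Th1, 3.11 in F and, on 15 UMIs, 78.3 in SM. In RW the EC1 mean was 15.9 CPM, beside 1.10 in Th1 and 6.97 in SM on 1 UMI. The EC1 level was thus above that of Th1 and F in both groups and not above that of SM in aN1aN2, and the part of free RNA in the EC1 difference was not tested. In EC2 it was at 1874, 2118 and 1839 CPM against 1288 and 895 (0.82, SE 0.20, adjusted p 0.00971), a call that was lost without RW 2 (0.157). In EC3 it was at 1010 to 1687 CPM against 1214 to 1230, and the groups overlapped (0.10, adjusted p 0.839). In EC4, Cldn5 had 3, 0 and 7 UMIs in RW 1, 2 and 3 and 30, 27 and 4 in aN1aN2, and the filter on low counts left it out. With no filter the difference was 2.07 (adjusted p 0.000603), and DESeq2 gave 2.06 (0.0817). In the fits without 1 sample that kept the gene, it was called without RW 2 (0.0437), RW 3 (0.00496) or aN1aN2 3 (0.000852), and not without RW 1 (0.0645).

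Cdh5, the adherens junction cadherin, was not called in any label. Its EC1 levels were 877, 954 and 1048 CPM in aN1aN2 against 887, 921 and 686 in RW (0.21, 95% interval -0.04 to 0.45, adjusted p 0.284). In EC4 all aN1aN2 samples (992 to 1369 CPM) were above RW (726 to 895), with a difference of 0.43 (adjusted p 0.0971). With the replicate number as a block over RW 1, RW 2, aN1aN2 1 and aN1aN2 2 it was called there (0.54, 0.0292). In EC2 all aN1aN2 samples were below RW (1110 to 1163 against 1495 and 1595), with a difference of -0.45 (adjusted p 0.0866). As a ratio to Cdh5 within EC1, Esam was 1.36 to 1.61 in aN1aN2 against 0.937 to 1.28 in RW, and Pecam1 1.99 to 2.29 against 1.46 to 1.86.

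**Figure D3:**
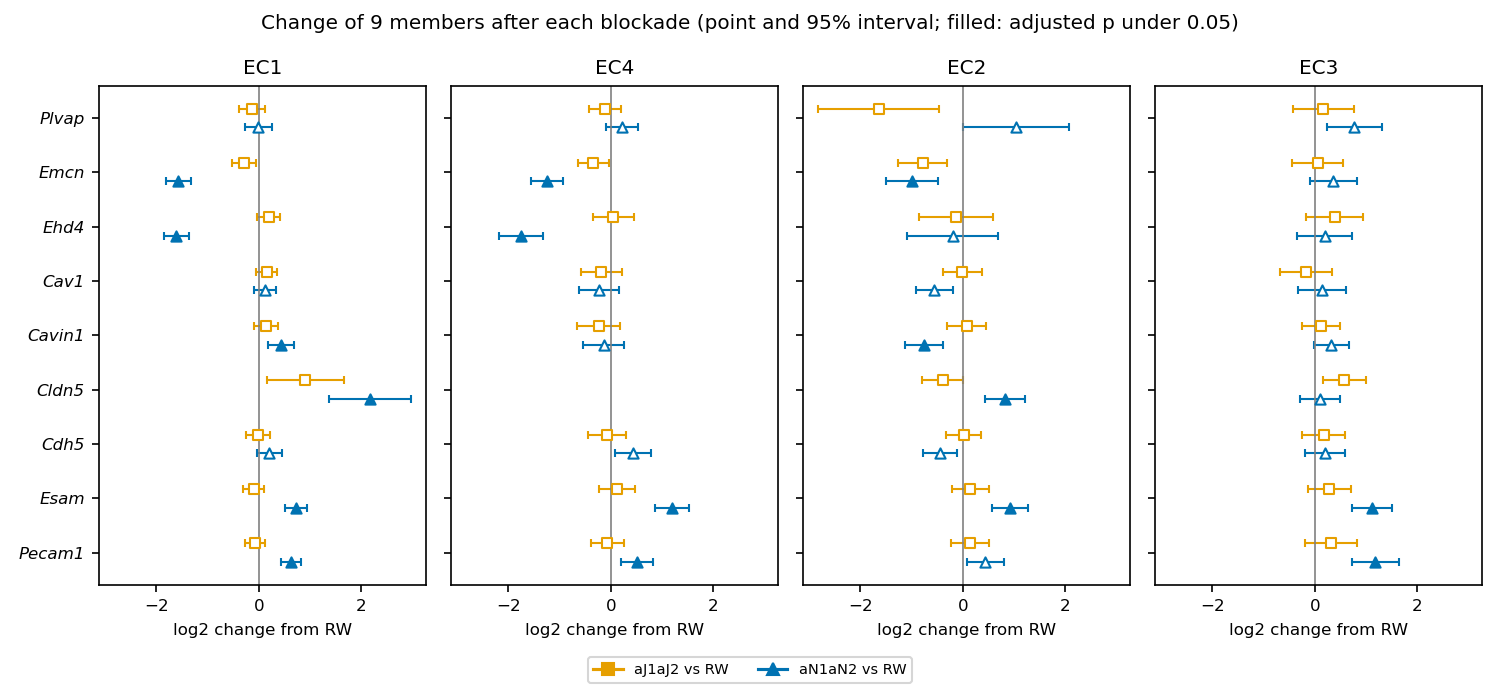
Log2 change of each member against RW in 4 labels (points, with 95% intervals; filled points have an adjusted p under 0.05; orange squares aJ1aJ2, blue triangles aN1aN2). No orange point is filled, Esam is filled in blue in all 4 labels, and Cldn5 was not tested in EC4.

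The share of cells that carried a UMI was compared after thinning each cell to 500 UMIs, because EC1 cells were deeper in RW (medians 4679 to 4968 UMIs) than in aN1aN2 (2518 to 3534). Emcn was found in 83.5% to 89.0% of EC1 cells in RW and in 52.8% to 56.4% in aN1aN2 (unthinned, every RW cell and a mean of 96.7% in aN1aN2). Ehd4 was found in 34.6% to 41.4% against 9.72% to 21.4% (unthinned 94.6% and 66.3%). Esam was found in 33.0% to 39.9% against 53.3% to 55.6% (unthinned 96.7% and 95.5%). The order of the thinned shares is that of the CPM. In EC4 the shares were 63.5% to 78.1% against 48.3% to 52.8% for Emcn, 23.96% to 38.5% against 9.93% to 13.3% for Ehd4 and 20.6% to 35.4% against 56.7% to 61.6% for Esam. Their unthinned means in EC4 were 83.9% and 70.1%, 53.4% and 22.9%, and 46.1% and 77.8%. In fibroblasts of label F none of these 3 genes was seen after thinning in RW, and in Th1 the shares of Emcn were 2.22% to 4.35%. In EC1 and EC4 the Emcn, Ehd4 and Esam shares of RW and aN1aN2 did not overlap.

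**Figure D4:**
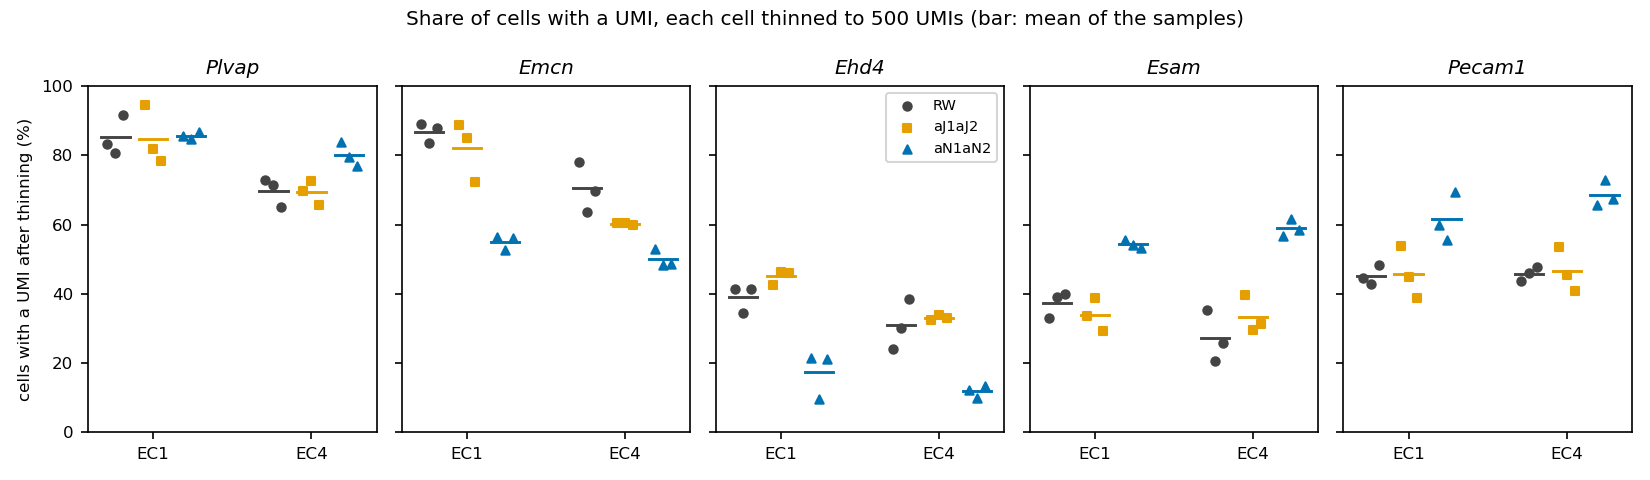
Share of EC1 and EC4 cells with at least 1 UMI of a member after thinning each cell to 500 UMIs (vertical axis in percent; 1 point per sample, bars are means). Plvap stays at 84.7% to 86.7% of EC1 cells in aN1aN2, Emcn and Ehd4 are lower in aN1aN2 and Esam and Pecam1 higher.

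The blockades were also set against each other. Both contrasts with RW share the RW samples, and this one does not use them except for the shared spread. In aN1aN2 against aJ1aJ2, 5 of 9 members were called in EC1 (13.6% of all genes), 4 of 9 in EC2 (10.5%), 0 of 9 in EC3 (1.14%) and 4 of 8 in EC4 (17.2%). In EC1, Emcn differed by -1.28 (adjusted p 2.17e-07), Ehd4 by -1.80 (1.96e-09), Esam by 0.82 (1.41e-05) and Pecam1 by 0.70 (3.49e-05). Cldn5 differed by 1.26 (0.0346), but aJ1aJ2 3 (50.5 CPM) lay within the range of aN1aN2, and the call was lost without aJ1aJ2 1 (0.0630), aJ1aJ2 4 (0.133), aN1aN2 2 (0.115) or aN1aN2 3 (0.195), with DESeq2 (0.0517) and with only these 2 groups in the fit (0.0506). In EC4, Emcn differed by -0.90 (0.000146), Ehd4 by -1.81 (8.06e-07), Esam by 1.07 (3.76e-05) and Pecam1 by 0.58 (0.0107, lost without aJ1aJ2 4 at 0.0851 and with cells of at least 1000 UMIs at 0.0707). In EC2, Cldn5 differed by 1.21 (0.000740), Esam by 0.78 (0.00667, lost without aJ1aJ2 3 at 0.0684 without aJ1aJ2 4 at 0.0531 and with no filter on low counts at 0.144) and Cavin1 by -0.84 (0.00672, lost without aJ1aJ2 4 at 0.0817). Plvap in EC2 differed by 2.69 (0.00419) on 40 UMIs in aN1aN2 and 22 in aJ1aJ2. On raw library totals it averaged 172 CPM in EC2 of aN1aN2 (72.8 to 268) and 24.6 in aJ1aJ2, against 85.2 and 73.5 in Th1 and 26.6 and 30.3 in F. The part of free RNA in this difference was not tested. The call was lost without aN1aN2 1 (0.0971) and with a minimum of 10 cells per sample (1.65, 0.471). In EC3, 3 members had an unadjusted p under 0.05 with edgeR, and DESeq2 called 1, Esam. Plvap in EC4 differed by 0.33 (adjusted p 0.159), and was called by DESeq2 (0.38, 0.0493), without aJ1aJ2 1 (0.46, 0.0315) and without series A (0.46, 0.0208). In EC1 it differed by 0.12 (0.614), and was called without series A (0.32, 0.0114).

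Whether a blockade acted differently in 2 labels was tested as an interaction within samples. Between EC3 and EC1, the effect of aN1aN2 against RW differed for 3 of 9 members (2.39% of all genes): the Emcn effect was higher by 1.93 in EC3 (adjusted p 2.90e-05), the Ehd4 effect by 1.84 (0.000580), and the Cldn5 effect was lower by 2.08 log2 units (-2.08, 0.00417). At an unadjusted p under 0.05 there were 5 of 9. Between EC2 and EC1, edgeR called 1 of 9 (1.36% of all genes), Cavin1, by -1.17 (SE 0.22, adjusted p 0.000220). There, 6 of 9 had an unadjusted p under 0.05, among them Cav1 (-0.71, adjusted p 0.0595) and Cldn5 (-1.15, 0.101, and 0.0254 with no filter on low counts). Between EC4 and EC1, edgeR called 0 of 9 (0.464% of all genes), with 2 at an unadjusted p under 0.05. The 2 were Cavin1 (-0.60, interval -1.02 to -0.17, p 0.00668 by edgeR) and Esam (0.46, p 0.0118). The EC4 minus EC1 intervals were -0.57 to 0.28 for Ehd4, -0.09 to 0.52 for Plvap and 0.11 to 0.81 for Esam, and the difference for Emcn was 0.33 (SE 0.17). Against aJ1aJ2, the effect of aN1aN2 differed for 4 of 9 members between EC2 and EC1 (1.06% of all genes): Cavin1, Plvap, Ehd4 and Cdh5. Plvap and Ehd4 rest on few UMIs in EC2 (Plvap 40 in aN1aN2 and 22 in aJ1aJ2, Ehd4 18 and 67), and the part of free RNA was not tested. It differed for 3 of 9 between EC3 and EC1 (0.853%), Emcn, Ehd4 and Cldn5, and for 0 of 9 between EC4 and EC1 (0.16%), with 1 at an unadjusted p under 0.05. DESeq2 was not run on interactions. For aJ1aJ2 against RW, 0 of 9 differed between EC1 and each of EC2, EC3 and EC4 (0.507%, 0% and 0.048% of all genes), with 2, 0 and 1 at an unadjusted p under 0.05.

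Other genes of the same structures were counted from fixed lists for aN1aN2 against RW, beside 17.8% of all genes called in EC1, 15.5% in EC2, 5.91% in EC3 and 21.1% in EC4. Of 12 tested genes of adherens junctions and adhesion in EC1, 0 were higher and 6 lower, led by the catenins Jup (log2 difference -0.67, adjusted p 0.000668) and Ctnnb1 (-0.58, 0.000820) and the protocadherin Pcdh12 (-1.004, 0.00188). EC4 gave 0 higher and 5 lower of 10, and in EC2 0 higher and 4 lower of 9. Cdh5 itself was not called in these labels. Tight junction genes were mixed: of 8 in EC1, the claudin Cldn15 (2.11, 3.45e-08) and cingulin-like Cgnl1 (1.73, 2.00e-07) were higher and the adhesion protein Jam3 (-1.81, 4.52e-08) was lower. The same 3 genes were called in the same directions in EC4, of 6 tested, with Cldn15 at 2.38 (3.53e-05). Of the caveola list, 1 of 7 was higher and 2 were lower in EC1, and 2 of 6 were higher and 3 lower in EC2, where Cavin2 (-1.34, 0.000397), Ehd2 (-0.89, 0.00765) and Cav2 (-0.93, 0.0171) fell beside Cavin1. In EC3, 0 genes of the adherens or caveola lists were called, and 1 tight junction gene of 7, Jam2 (0.65, 0.0497).

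Among surface receptors and sialomucins, some genes were called in each label. Of 11 tested genes, 1 was higher and 3 lower in EC1: the VEGF receptor Kdr (-2.47, 3.53e-12), its co-receptor Nrp1 (-2.10, 1.65e-10) and the sialomucin Podxl (-1.48, 1.11e-07), which like Emcn coats the luminal surface, were lower. In EC4, 2 were higher and 4 lower, with Kdr at -2.10 (8.91e-10) and Podxl at -1.98 (2.51e-09). EC2 gave 1 higher and 3 lower. In EC3, where Emcn was not called, 2 were higher and 1 lower, with Gpihbp1 at 2.11 (0.000690), Tek at 0.78 (0.0327) and Kdr at -1.04 (0.0449). Among 11 endothelial transcription factors in EC1, 3 were higher and 1 lower, with Ets1 at -1.15 (1.00e-06), Gata2 at 0.89 (9.35e-05) and Fli1 at 0.66 (0.00232). Ets1, an ETS factor, was lower in EC4 (-1.72, 3.43e-06) and EC2 (-1.92, 0.000187) too. In EC3, 3 of 11 factors were higher, Ets2 (0.97, 0.0112), Gata2 (0.78, 0.0354) and Klf2 (0.77, 0.0384), and 0 lower. The medians of the lists in EC1 were -0.51 for adherens junctions, 0.58 for tight junctions, -0.18 for caveolae, -0.14 for receptors and sialomucins and 0.15 for transcription factors, against -0.01 over all genes. For aJ1aJ2 against RW, 2 caveola genes were called in EC2, Ehd1 (1.07) and Pacsin3 (2.76), and the shear-response factor Klf2 (-1.18), where 1.91% of all genes were called, and 0 genes of the 5 lists in EC1, EC3 and EC4.

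The genes whose levels ran most like each member over the 33 sums of sample and label were listed among 4646 genes by Pearson r of log2 CPM, as a description; sums of 1 sample share a library and labels share their depth. For Plvap they were Fam167b (0.940), Col13a1 (0.924) and Cd24a (0.921). For Emcn they were Plpp3 (0.942), Exoc3l2 (0.933) and Exoc3l4 (0.931), and for Ehd4 Rdx (0.957), Plscr2 (0.924) and Enpp6 (0.919). Cav1 and Cavin1 were among each other's 3 nearest genes (0.926), with Meox2 (0.943) and Fabp4 (0.911) for Cav1 and Ehd2 (0.916) and C1qtnf9 (0.910) for Cavin1. Cldn5 ran with S100a6 (0.932), Tspan7 (0.920) and Pxdc1 (0.890). The junction genes had no member among their nearest. Cdh5 ran with Ctnnbip1 (0.907), Lims2 (0.822) and Slc28a2 (0.813), Esam with Kank3 (0.928), Spry1 (0.897) and Sh2d3c (0.894), and Pecam1 with Mrtfb (0.818), Serinc3 (0.811) and Tsc22d3 (0.780).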

How the data were processed

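The authors deposited 1 table of raw UMI counts per gene and cell (10186 cells, 63121420 UMIs, 500 to 131347 per cell) and an annotation of the cells with sample and label. Per the submitters' processing notes, Cell Ranger and GRCm38 were used, and versions, strand handling and the making of labels are not given in the sources used here. In 2619 annotation lines shifted columns were set right. Symbols were matched for 52403 of 52636 identifiers. Columns of no sample numbered 0.

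The replicate was the pool of mice. Counts were summed per sample and label (at least 20 cells) and tested with edgeR 4.0.16 (R 4.3.3, filterByExpr, TMM, quasi-likelihood test, 3 groups in 1 fit, Benjamini-Hochberg over all genes tested). CPM is scaled to the TMM-adjusted total. Folds and log2 differences come from the fit, and 95% intervals are 1.96 SE. Interactions of label and group had the sample as a block. In EC1 the counts of replicate pairs differed by more than sampling noise (chi-square per degree of freedom 1.48 to 6.90). P-values measure the spread between pools. Intervals cover no more than that spread. Doublets were not called. The fits were tested on simulated data for aN1aN2 against RW, with 1 set spread for all genes. Of changes of log2 size 1, 26.3% were called in EC1, 25.8% in EC2, 12.9% in EC3 and 33.0% in EC4. Of changes of log2 size 2, 81.3%, 74.2%, 84.2% and 91.5% were called. For the interactions with EC1, 12% (EC3) and 9% (EC4) of changes of size 1 were called. A change of that size was thus often missed at the set spread. Alternatives were DESeq2 1.42.0, other scalings, filters, cell minimums and samples left out. The members and lists were chosen with earlier results of these data known. All 9 members were tested in each label, except Cldn5 in EC4, and at most 3 called genes per list and contrast are named by adjusted p.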

Additional observations from a re-analysis of the deposited data

Results flagged for a closer look

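The effect of a blockade differed between EC1 and another label in 11 of 81 tests of members (edgeR interaction, adjusted p under 0.05). Over all genes, 0% to 2.39% were called in the 9 interactions tested. For aN1aN2 against RW, Cavin1 differed between EC2 and EC1 by -1.17, and it held without each aN1aN2 sample in turn. It was not fitted without RW 1 or RW 2, the only RW samples used in EC2. Between EC3 and EC1, Emcn differed by 1.93 and Ehd4 by 1.84, which also held without each sample, and Cldn5 by -2.08, which was lost without aN1aN2 3 (adjusted p 0.0505). For aN1aN2 against aJ1aJ2 between EC2 and EC1, Cavin1 differed by -1.08 and held without each aN1aN2 sample. Plvap differed by 2.32 and was lost without aN1aN2 1 (0.0811). Ehd4 differed by 1.71 and was lost without aN1aN2 1 (0.268) or aN1aN2 3 (0.0578). In EC2 both genes rest on few UMIs (Plvap 22 in aJ1aJ2 and 40 in aN1aN2, Ehd4 67 and 18), and the part of free RNA was not tested. Cdh5 differed by -0.76 and was lost without aN1aN2 1 (0.0519), aN1aN2 2 (0.115) or aN1aN2 3 (0.162). Between EC3 and EC1, Emcn differed by 1.43 and held, Ehd4 by 1.69 and was lost without aN1aN2 2 (0.0827), and Cldn5 by -1.75 and was lost without aN1aN2 1 (0.0697), aN1aN2 2 (0.219) or aN1aN2 3 (0.213).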

How the results depend on the processing

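Over 213 tested values of members, 2458 alternative values were computed: 2372 kept direction and call, 60 lost a call, 26 gained one and 0 reversed. Some alternatives repeated the main fit and could not differ from it. Examples were a minimum of 10 cells in EC1 and EC4, and leaving out series A in EC2 against RW. The calls of Emcn, Ehd4, Esam, Pecam1 and Cldn5 in EC1 and of Emcn, Ehd4 and Esam in EC4 (aN1aN2 against RW) held in all 17 alternatives. The minimum of 10 cells, which repeated the main fit, is among them. Counts of members called that stayed within 1.5 times the main count are not listed, although single calls within them were lost (Cavin1 in EC1, Pecam1 in EC4 and Cldn5 in pooled cells against RW, and Cldn5 in EC1 against aJ1aJ2). The count moved further as follows. With no filter on low counts it was 1 in EC1 (1.81% of all genes) and 2 in pooled endothelial cells (2.61%) for aJ1aJ2 against RW, 1 in EC3 (1.51%) for aN1aN2 against aJ1aJ2, and 2 for the interaction of EC2 with EC1 (aN1aN2 against RW). Without series A it was 1 in EC1 (6.1% of all genes, aJ1aJ2 against RW). With cells of at least 1000 UMIs it was 2 in EC2 (8.68%), with at least 10 cells per sample 1 in EC3 (4.33%), and without cells holding a mural UMI, an alternative chosen after seeing the data, 0 in EC3 (0.99%), each for aN1aN2 against RW. DESeq2 called 1 in EC3 (0.581%) for aN1aN2 against aJ1aJ2. Leaving out 1 sample gave 0 to 1 in EC1 for aJ1aJ2 against RW (0.424% to 3.94% of all genes). In EC2, leaving out an RW or aJ1aJ2 sample left 1 in its group, so those counts are not given. For the interactions that could be fitted with 1 sample left out, the count was 1 to 2 and 2 to 4 for EC2 with EC1 (against RW and aJ1aJ2). It was 1 to 3 for EC3 with EC1 (against aJ1aJ2). The main fits of these interactions called 1.36%, 1.06% and 0.853% of all genes. The cause of these shifts was not tested.

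The titles of RW 1, RW 2, aN1aN2 1 and aN1aN2 2 share replicate numbers, while the number of RW 3 is not from its title. In EC1, the label checked, samples with the same number did not deviate together (r -0.00 over 6291 genes). With the replicate number as a block over RW 1, RW 2, aN1aN2 1 and aN1aN2 2, the replicate block gave 6 calls in EC1 (20.9% of all genes), 4 in EC2 (16.6%), 2 in EC3 (5.16%), 6 in EC4 (17.8%) and 6 in pooled cells (22.1%), where Plvap became a call (0.22, adjusted p 0.0142). The same 4 samples without it gave 6 (20.4%), 3 (14.7%), 2 (3.02%), 5 (17.2%) and 4 (18.6%). UMI depth limits Cldn5 in EC1 and EC4 and Plvap and Ehd4 in EC2.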
